A study of Mus musculus with 8 samples.

Results

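The BTG and TOB genes encode a small family of antiproliferative proteins, and their transcripts were followed in nuclei of the mouse iris across 10 cell types and 3 states of the pupil. The 5 genes Btg1, Btg2, Btg3, Tob1 and Tob2, of 22873 genes counted, were taken by symbol. Btg2 was selected on its higher level in dilated than in untreated irises in these same libraries, so its dilated values are given as a description with no test. The other 4, here called the paralogs, were taken by family name with earlier results of these data known, and the comparison asks whether they moved with Btg2. Btg4, which also carries the family name, was not among them.

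BTG and TOB proteins share an N-terminal domain that binds the CNOT7 and CNOT8 deadenylases of the CCR4-NOT complex, and through them they promote the shortening of mRNA poly(A) tails. TOB1 and TOB2 also bind the cytoplasmic poly(A)-binding protein PABPC1, which ties that activity to messages being translated. Btg2 is both a classical p53 target and an immediate early gene, switched on within minutes by growth factors, depolarization or cyclic AMP in many cells, while Btg1 is best known as a gene of quiescent cells.

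The untreated libraries (n = 3) came from irises of untreated mice. The dilated libraries (n = 2) came from mice given 5% phenylephrine, an alpha-adrenergic agonist, with 1% cyclopentolate, a muscarinic antagonist, every hour over 6.5 hours in the dark. The constricted libraries (n = 3) came from mice given 5% pilocarpine, a muscarinic agonist, over the same 6.5 hours in the light, so that drug and light cannot be told apart. All mice carried the label WT and were albino females aged 6 to 8 weeks, and each library pooled 5 or 6 irises, which were freed from the eye with some of the adjoining ciliary body.

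The 8 libraries held 34357 nuclei and from 5189437 to 25136427 unique molecular identifiers (UMIs), with medians of 2775 to 4697.5 UMIs per nucleus. Levels are given as CPM, the UMIs of a gene per 1e6 UMIs summed over a cell type of a library, and in these summed data a change in part of the nuclei and in all of them cannot be told apart. After removal of the library suffix, 195 cell barcodes occurred in more than 1 library, on 400 nuclei, and 63 of them were shared by untreated replicate 1 and dilated replicate 1. The deposited cell type names were checked against their markers: Adra1a and Nos1 were highest in dilator muscle, and the markers of stroma 1, stroma 2, leukocytes and endothelial cells were each highest in their own type, whereas Slc4a4 was highest in CB (ciliary body) and ranked 7 of 10 in CBE (ciliary body epithelium). Myh11 and Acta2, also listed for dilator muscle, were highest in sphincter 1, with dilator muscle ranked 3. Zic1 was highest in iris PE (pigment epithelium), where Otx1 ranked 3 and Pax6 ranked 2. None of the markers listed for sphincter 2 was highest there: Chrm3 ranked 3, and Syt1, Adra1a and Myh11 ranked 2. The summed level of 4 photoreceptor genes in dilator nuclei was 91.9 CPM in dilated replicate 1 and between 40.8 and 58.7 CPM in the other libraries. Over the nuclei of all types, 1 of the 4 was at 0 in 3 libraries. The summed level of 3 lens genes in dilator nuclei was 14.7 CPM in dilated replicate 1 and between 4.99 and 8.02 CPM elsewhere. Their part in the results was not tested.

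The promoters of Btg2, Btg1 and Tob1 are shown because they hold the cyclic AMP response element (CRE), TGACGTCA, or its shorter core TGACG, on either strand, and Btg2 is the one with the whole element. The sequences are the 250 bases before the RefSeq transcription start in GRCm38.p6, read 5' to 3' on the strand of the gene, with matches in capitals.
Btg2, chr1:134079156-134079405, minus strand: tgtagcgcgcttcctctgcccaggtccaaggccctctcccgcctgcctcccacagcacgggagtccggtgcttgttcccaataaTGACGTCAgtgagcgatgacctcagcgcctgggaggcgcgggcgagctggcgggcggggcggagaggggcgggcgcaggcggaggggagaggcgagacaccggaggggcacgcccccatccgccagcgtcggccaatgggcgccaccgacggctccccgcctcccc
Btg1, chr10:96616751-96617000, plus strand: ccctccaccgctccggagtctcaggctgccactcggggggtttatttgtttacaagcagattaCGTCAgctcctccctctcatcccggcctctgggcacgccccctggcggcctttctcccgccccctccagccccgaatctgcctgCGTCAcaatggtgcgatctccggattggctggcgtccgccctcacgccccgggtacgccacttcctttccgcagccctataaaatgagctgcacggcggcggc
Tob1, chr11:94211204-94211453, plus strand: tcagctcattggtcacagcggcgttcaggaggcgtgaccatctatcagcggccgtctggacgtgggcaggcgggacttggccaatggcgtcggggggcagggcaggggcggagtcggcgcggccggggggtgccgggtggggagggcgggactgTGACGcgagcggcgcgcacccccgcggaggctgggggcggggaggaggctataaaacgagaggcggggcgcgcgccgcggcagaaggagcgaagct
The CRE of Btg2 begins 166 bases before the start, and the same letters occurred in 508 of 32851 promoter windows of this length (1.55%). The whole element holds the core on both strands, overlapping. Btg1 held 2 separate cores, 187 and 103 bases before the start, both read on the opposite strand, and Tob1 held 1, at 96 bases. A core occurred in 17.8% of all windows. The Tob2 window and both Btg3 windows held neither, which says only that these letters are absent from these windows.

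In GENCODE vM21 (GRCm38) the genes lie apart from one another: Btg2 at chr1:134075170-134079120, Btg1 at chr10:96617006-96622809, Btg3 at chr16:78332637-78377192, Tob1 at chr11:94211454-94215495 and Tob2 at chr15:81848272-81858796. The annotation also has Btg1-ps1 and Btg1-ps2 on the X chromosome, near copies of Btg1, so that Btg1 counts are less certain than those of the other members.

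By the mean, Btg2 was higher in dilated than in untreated irises in every cell type, and its dilated level was highest in dilator muscle, the radial smooth muscle that opens the pupil. Dilator nuclei of untreated irises had 19.9, 15.2 and 12.8 CPM of Btg2 (mean 15.99), those of constricted irises 8.13, 13.7 and 19.0 CPM, and those of dilated irises 140.1 and 1025 CPM. Both dilated libraries were above all 6 others, and they were themselves far apart: replicate 1 was 8.76-fold and replicate 2 was 64.1-fold above the untreated mean. In replicate 1 the fold was no larger in dilator muscle than in CB, the ciliary body type, or stroma 1, which stood 9.66-fold and 10.03-fold above their untreated means of few UMIs. The fitted log2 fold change against untreated was 5.50 ± 0.67 (SE), 3.30 without dilated replicate 2 and 6.33 without dilated replicate 1. Of 9021 Btg2 UMIs in the series, 6534 (72.4%) were in dilator nuclei of dilated irises, which held 13.8% of all UMIs.

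**Figure D1:**
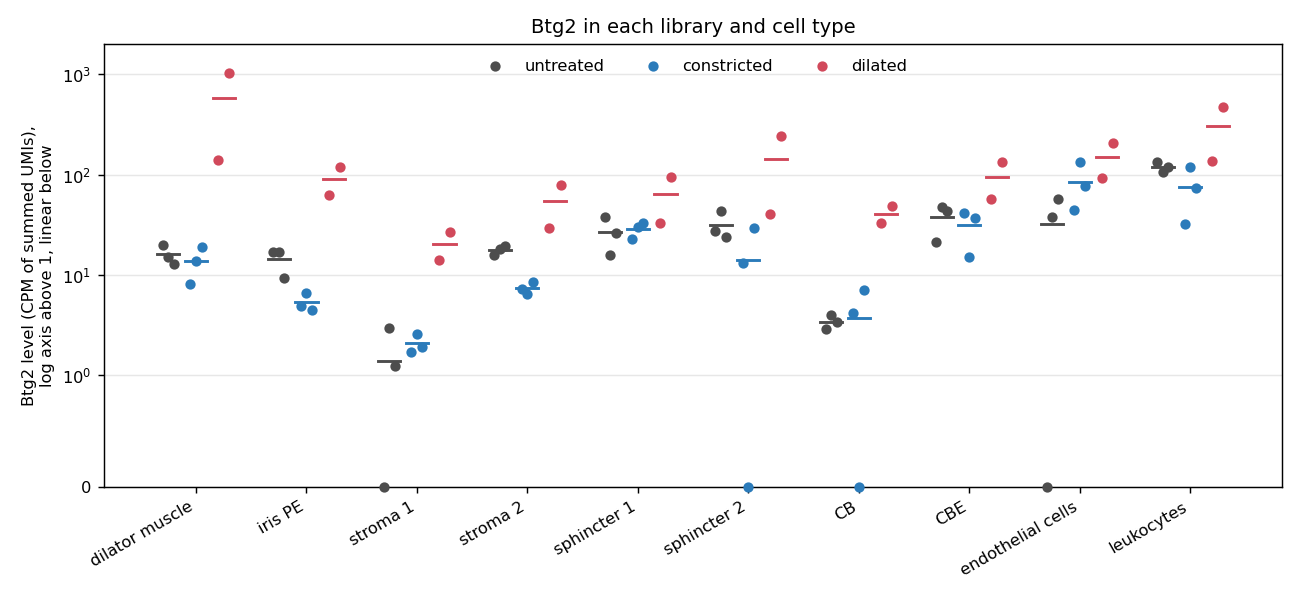
Btg2 level in CPM of summed UMIs (vertical axis, logarithmic above 1 and linear below) in each of the 8 libraries and 10 cell types. Points are libraries and bars are means of untreated (grey), constricted (blue) and dilated (red) libraries; the 2 dilated dilator points lie at 140.1 and 1025 CPM, and the upper point is dilated replicate 2 in all 10 types.

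The same gap between the dilated libraries was seen per nucleus. In dilator muscle, 692 of 2567 nuclei of dilated replicate 1 (27.0%, 95% Wilson interval 25.3 to 28.7%) and 994 of 1306 of replicate 2 (76.1%, 73.7 to 78.3%) had at least 1 Btg2 UMI. The range was 3.42 to 4.18% in the untreated and 2.42 to 6.09% in the constricted libraries. The Wilson intervals cover counting error within a library only, not the spread between libraries. With every nucleus thinned to 1000 UMIs the shares were 10.4% and 50.0% in the dilated libraries, between 1.00 and 1.45% in the untreated and between 0.746 and 1.80% in the constricted ones. The thinning left out 2 and 1 nuclei of the dilated libraries. Nuclei with at least 10 Btg2 UMIs made up 10.8% of dilated replicate 2, with a maximum of 32 UMIs, against 0.273% of replicate 1, with a maximum of 14. Untreated replicate 1 held 1 such nucleus of 403 (0.248%), with 11 UMIs.

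**Figure D2:**
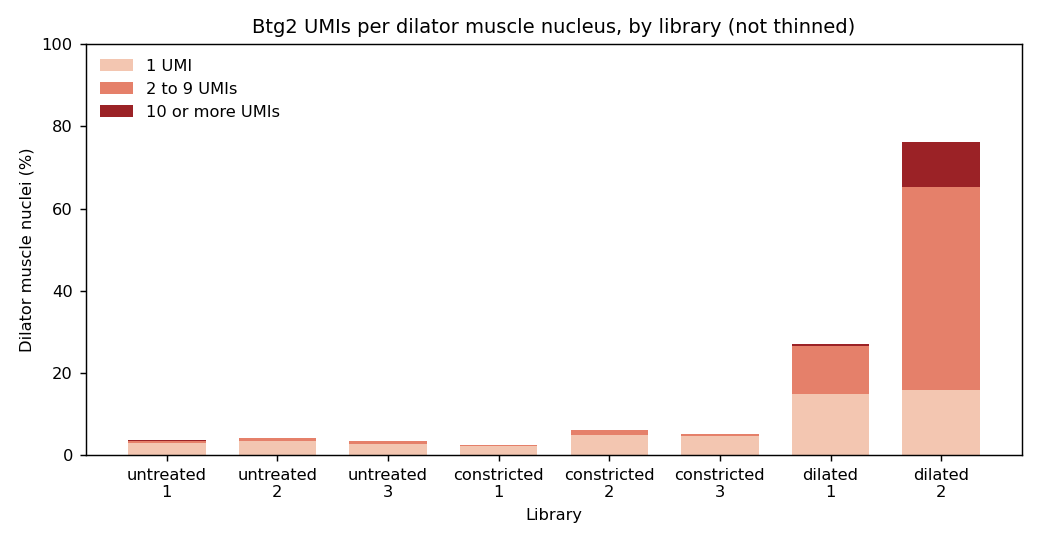
Percent of dilator muscle nuclei (vertical axis) with 1, with 2 to 9 and with 10 or more Btg2 UMIs in each library (horizontal axis), nuclei not thinned. The stacks reach 27.0% and 76.1% in the 2 dilated libraries and at most 6.09% in the other 6.

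Stroma 1, the Sox10-expressing stromal type, had the lowest Btg2 level, and there 3.57% of nuclei of dilated replicate 1 and 6.01% of replicate 2 had a Btg2 UMI, at median depths of 2815.5 and 2492 UMIs against 3800 and 3660 in dilator nuclei. No cell type is known to lack Btg2, so these shares are an upper guide to free RNA. As a measure of dilator RNA in other nuclei, the dilator receptor gene Adra1a in stroma 2 stood at 3.05% and 0.721% of its dilator level in the 2 dilated libraries, where Btg2 stood at 21.0% and 7.69%. In iris PE (pigment epithelium) Adra1a stood at 6.70% and 2.68% and Btg2 at 44.5% and 11.6%. In untreated irises Btg2 stood at 78.8 to 150.2% of its dilator level in stroma 2 and 72.1 to 111.2% in iris PE. Adra1a stood there at no more than 3.46%. Btg2 thus lay above this marker in stroma 2 and iris PE before dilation, so its place above Adra1a after dilation does not measure carried-over RNA. In stroma 1 Adra1a stood at 1.62% and 2.75% and Btg2 at 9.93% and 2.60%, so Btg2 was above that marker in replicate 1 and not in replicate 2. In CB Adra1a stood at 18.3% and 14.2% and Btg2 at 23.5% and 4.70%, and in sphincter 2 Adra1a stood at 73.2% and 68.7% and Btg2 at 29.1% and 23.6%. Adra1a was also counted in both types without dilation, at 5.71 to 16.9% of its dilator level in CB and 42.9 to 49.5% in sphincter 2 of untreated irises. The dilator marker Nos1 gave lower values in the dilated libraries than Btg2 in these types. It stood at 4.02% and 1.76% in stroma 1, 4.84% and 0% in CB and 16.05% and 21.5% in sphincter 2. Nos1 was scarce there, at 5.57 and 1.67 CPM in stroma 1. Btg2 in untreated irises stood at 0 to 19.3% of its dilator level in stroma 1, 14.5 to 26.3% in CB and 137.8 to 287.5% in sphincter 2. In leukocytes, with 68 and 34 nuclei in the dilated libraries, Adra1a stood at 11.4% and 38.1% and Nos1 at 9.42% and 55.6%. Btg2 stood there at 97.8% and 46.4%. In untreated leukocytes Adra1a stood at 0 to 7.48%, Nos1 at 0 to 10.5% and Btg2 at 664 to 918%. The part of dilator RNA in the Btg2 values of leukocytes and of the other types was not tested.

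Among the other cell types, iris PE, the epithelium that lies against the dilator, had 16.7, 16.9 and 9.24 CPM untreated and 62.4 and 119 CPM dilated, with a log2 fold change of 2.76 ± 0.31. Stroma 2, the fibroblast-like stroma, had 15.7, 18.1 and 19.2 CPM untreated and 29.4 and 78.8 CPM dilated, 1.58 ± 0.36 on the log2 scale. Neither pair of groups overlapped.

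In CB the untreated libraries had 2.89, 3.96 and 3.38 CPM, 4 UMIs in all, and the dilated ones 32.9 and 48.1 CPM, with a log2 fold change of 3.41 ± 0.70. Sphincter 2, a smooth muscle type of the pupil margin, had 27.5, 43.7 and 23.7 CPM untreated and 40.7 and 242 CPM dilated, and the lower dilated library lay within the untreated range. Its log2 fold change was 2.24 ± 0.48, and 0.35 without dilated replicate 2. Sphincter 1 also overlapped, with 37.6, 15.9 and 26.2 CPM untreated and 32.7 and 94.6 CPM dilated.

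Leukocytes, a small group marked by Ptprc, Mrc1 and Csf1r, had the highest untreated level of Btg2, 132, 106 and 118 CPM, and 137 and 476 CPM after dilation. CBE had 21.4, 47.3 and 43.7 CPM untreated and 57.1 and 133 CPM dilated. The log2 fold changes were 1.35 ± 0.48 and 1.17 ± 0.39. Over the 10 types the dilated libraries did not overlap the untreated ones in 8. Those 8 include stroma 1 and endothelial cells, where Btg2 did not pass the filter on low counts. Of all gene and cell type pairs that passed it, 12.2% had every dilated library above every untreated one. Btg2 was chosen for this difference, so its count is a description and is not measured against that share. Dilated replicate 2 was above replicate 1 in 10 of 10 types, by 1.46-fold in CB to 7.32-fold in dilator muscle. Without replicate 2 the log2 fold changes were 2.17 in iris PE, 0.68 in stroma 2, 0.44 in sphincter 1, 3.19 in CB, 0.54 in CBE and 0.26 in leukocytes. Without replicate 1 they were 3.20 in iris PE, 2.20 in stroma 2, 2.05 in sphincter 1, 3.73 in CB, 1.84 in CBE and 2.14 in leukocytes.

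In untreated irises the order of the types was leukocytes (119 ± 13.2 CPM, SD), CBE (37.4 ± 14.0), endothelial cells (31.8 ± 29.2), sphincter 2 (31.6 ± 10.6), sphincter 1 (26.6 ± 10.8), stroma 2 (17.7 ± 1.81), dilator muscle (15.99 ± 3.63), iris PE (14.3 ± 4.37), CB (3.41 ± 0.536) and stroma 1 (1.39 ± 1.47). Leukocytes stood above CBE, and iris PE above CB, in every library, and all other neighbours in this order overlapped.

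None of the 4 paralogs passed the test for a change with dilation in dilator muscle or in any other cell type, in edgeR, and in dilator muscle their intervals ended at or below 0.97 on the log2 scale. In dilator muscle Btg1 had 50.5, 62.3 and 63.9 CPM untreated and 60.5 and 47.5 CPM dilated, a log2 fold change of 0.03 ± 0.17 with a 95% interval of −0.33 to 0.40. Btg3, an antiproliferative member of the same family, had 11.2, 12.2 and 11.2 CPM untreated and 10.6 and 13.2 CPM dilated, 0.20 ± 0.25 on the log2 scale with an interval of −0.33 to 0.73. For both genes the untreated values lay between, or overlapped, the dilated ones.

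Tob1 had 25.6, 16.04 and 16.1 CPM in untreated dilator nuclei and 15.5 and 25.4 CPM in dilated ones, a log2 fold change of 0.34 ± 0.29 with an interval of −0.29 to 0.97. Tob2 had 38.0, 37.3 and 43.0 CPM untreated and 38.0 and 51.5 CPM dilated, 0.36 ± 0.20 with an interval of −0.08 to 0.80. Between the 2 dilated libraries, where Btg2 differed 7.32-fold, Tob1 differed 1.64-fold, Tob2 1.35-fold and Btg3 1.25-fold in the same direction, whereas Btg1 was lower in replicate 2.

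**Figure D3:**
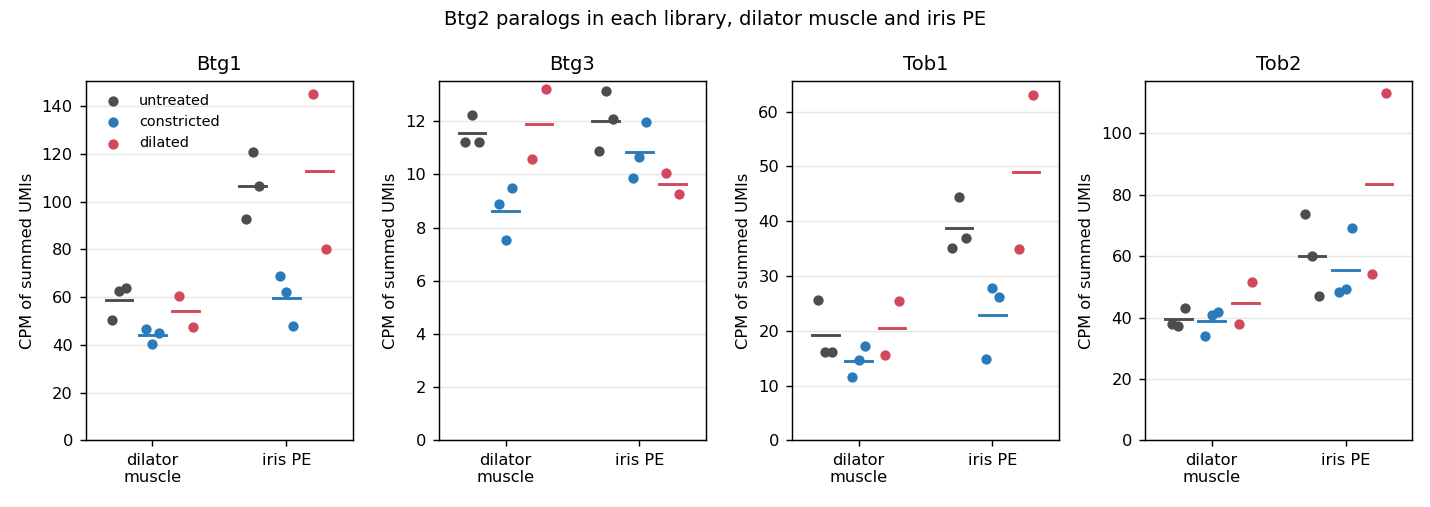
Level of each paralog in CPM of summed UMIs (vertical axes, from 0, each panel with its own scale) in dilator muscle and iris PE. Points are libraries and bars are means of untreated (grey), constricted (blue) and dilated (red) libraries; dilated and untreated points overlap in every panel except Btg3 in iris PE, where both dilated libraries lie at 10.1 and 9.25 CPM, under the lowest untreated one at 10.9 CPM.

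Over the 10 cell types, 26 of 40 pairs of a paralog and a cell type passed the filter on low counts, and 0 of the 26 were called changed by dilation in edgeR at an adjusted p under 0.05 and an absolute log2 fold change above 0.6. Of all gene and cell type pairs tested 3.34% were called, and 13.3% of those in dilator muscle. At an unadjusted p under 0.05 there were 2, Btg1 and Tob2 in sphincter 2, and DESeq2 called 0 with 1 at an unadjusted p under 0.05. In edgeR 900 of the 6691 genes tested in sphincter 2 were at that level, and 4351 of 15395 in dilator muscle. The log2 fold changes of the 26 pairs ran from −0.30 to 1.10, with 22 above 0 and 4 below. The medians of all genes lay between −0.011 and 0.015 by cell type. The pairs share libraries, and this lean was not tested. Both dilated libraries were above all untreated ones in 4 of the 26 pairs (15.4%), near the 12.2% of all gene and cell type pairs, and those 4 were Btg1 in sphincter 2 and CB and Btg3 and Tob1 in stroma 2. Btg1 in CB had 37.6, 57.4 and 30.4 CPM untreated and 66.4 and 75.6 CPM dilated (log2 fold change 0.71 ± 0.37, edgeR adjusted p = 0.99).

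Btg1 in sphincter 2 came nearest, with 18.3, 31.2 and 34.1 CPM untreated and 63.0 and 64.7 CPM dilated. The groups did not overlap, and the log2 fold change was 1.10 ± 0.40 (edgeR, adjusted p = 0.16). Tob2 in sphincter 2 had 55.0, 27.1 and 22.2 CPM untreated and 37.0 and 74.9 CPM dilated, 1.09 ± 0.44 with an adjusted p of 0.22 from edgeR.

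In stroma 2 both Btg3 and Tob1 were above the untreated range in both dilated libraries. Btg3 had 23.0, 24.4 and 20.4 CPM untreated and 25.9 and 36.8 CPM dilated (log2 fold change 0.49 ± 0.27, edgeR adjusted p = 0.56). Tob1 had 10.9, 9.70 and 5.94 CPM untreated and 12.1 and 15.8 CPM dilated (0.74 ± 0.36, edgeR adjusted p = 0.46). Neither passed the test, and 12.2% of all genes tested in stroma 2 lay above the untreated range in the same way.

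In iris PE the log2 fold changes with dilation were 0.11 ± 0.22 for Btg1, 0.34 ± 0.28 for Tob1, 0.55 ± 0.29 for Tob2 and −0.30 ± 0.25 for Btg3. Btg3 lay below all untreated libraries in both dilated ones, as did 15.5% of all genes tested in iris PE. In leukocytes Tob1 had 0 UMIs in the 3 untreated libraries, which allows up to 6.58 CPM over the group, and 4 UMIs in the dilated ones. Counting intervals cover counting error only.

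**Figure D4:**
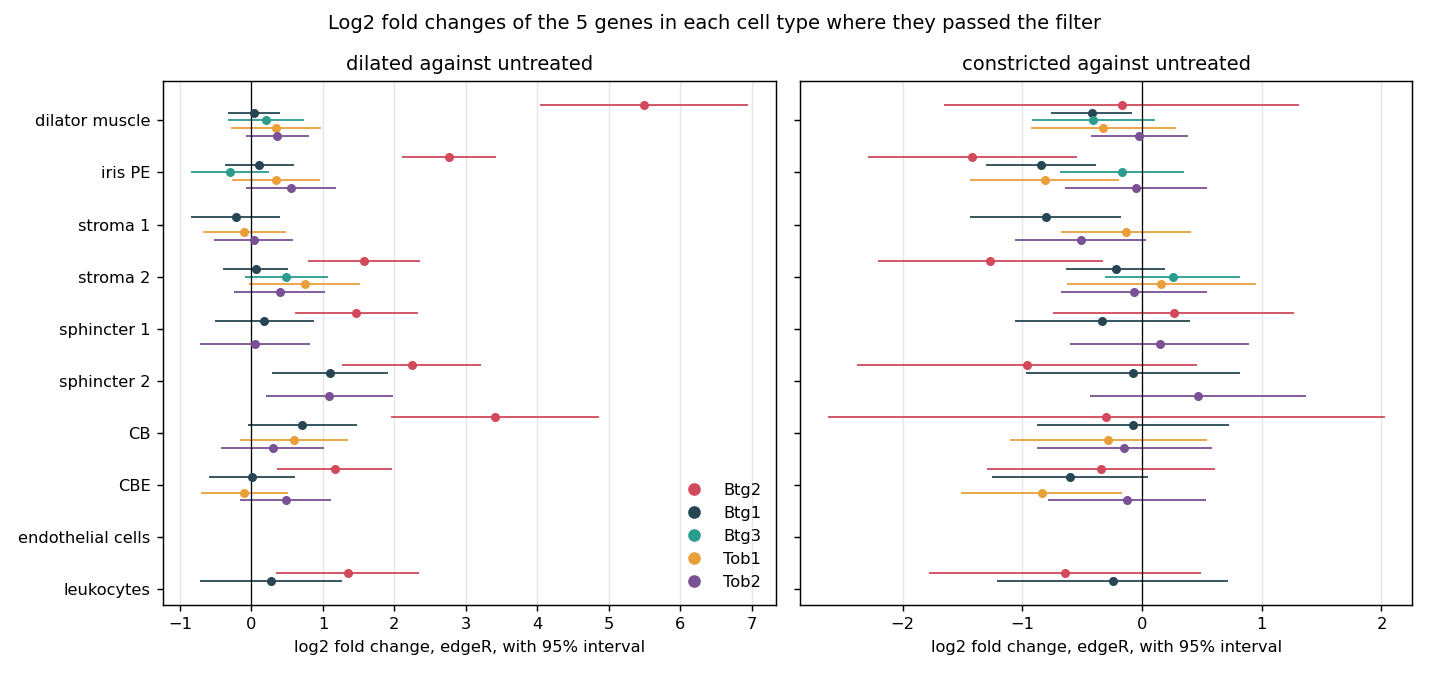
Fitted log2 fold changes (horizontal axes) of the 5 genes with 95% intervals from edgeR in each cell type where the gene passed the filter, dilated against untreated on the left and constricted against untreated on the right. Btg2 lies at 5.50 in dilator muscle on the left, where it was chosen for that difference, and the paralogs lie between −0.30 and 1.10 on that side.

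Whether the dilation effect of a paralog differed between dilator muscle and another cell type was tested in joint fits of both types. Of 36 tests with the 4 paralogs 0 passed an adjusted p of 0.05 in edgeR, beside 5.12% of all gene and fit pairs, and 3 had an unadjusted p under 0.05. The nearest was Btg1 against sphincter 2, where the effect in dilator muscle was smaller by 1.14 ± 0.38 on the log2 scale (the difference is −1.14, edgeR adjusted p = 0.10). In that fit 1352 of 12671 genes had an unadjusted p under 0.05. The others were Btg1 against CB and Tob1 against leukocytes, in fits with 1751 of 13780 and 930 of 13413 genes at that level. The value of Tob1 against leukocytes (−7.88 ± 3.25) rests on leukocytes with 0 untreated UMIs. A gene could enter a joint fit on its dilator counts alone. Some of the 36 tests thus used a type where the paralog did not pass its own filter, among them all 4 in endothelial cells. Such tests could find only large differences.

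Inside the dilated dilator muscle, the paralogs were also counted in nuclei with and without a Btg2 UMI. In replicate 2, Btg1 stood at 46.8 CPM in the 994 nuclei with a Btg2 UMI and 50.2 CPM in the 312 without, and Tob1 at 24.5 and 28.8 CPM. In replicate 1, Btg1 stood at 56.2 and 62.3 CPM and Tob1 at 13.4 and 16.4 CPM. Btg3 went the other way, at 13.5 and 12.1 CPM in replicate 2 and 12.0 and 9.95 CPM in replicate 1. Tob2 was mixed, at 50.6 and 54.8 CPM in replicate 2 and 38.4 and 37.8 CPM in replicate 1. The nuclei with a Btg2 UMI were deeper, with medians of 3751 against 3385 UMIs in replicate 2. With all nuclei thinned to the same depth and split again, Btg3 was lower in nuclei with a Btg2 UMI. It stood at 13.8 against 16.8 CPM in replicate 2 and 3.73 against 12.2 CPM in replicate 1. In the same order, Tob2 stood at 65.95 against 50.5 and 41.04 against 40.5 CPM, near equal in replicate 1. Btg1 was mixed, at 36.8 against 52.1 and 63.4 against 60.5 CPM. Tob1 stayed lower, at 21.5 against 26.03 and 7.46 against 17.8 CPM. In replicate 1 only 268 thinned nuclei had a Btg2 UMI, of which 0.373% had a Btg3 UMI and 0.746% a Tob1 UMI. These sparse counts were not tested, and their directions rest on few UMIs.

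Constriction left no member called. Of 34 tested pairs of a member and a cell type 0 were called in edgeR, beside 0.0118% of all gene and cell type pairs, 7 had an unadjusted p under 0.05, and DESeq2 called 0 with 6 at that level. All 7 were lower in constricted than in untreated irises, and 3 of them were in iris PE, as Btg2, Btg1 and Tob1. An unadjusted p under 0.05 was found in edgeR for 626 of the 14128 genes tested in iris PE. In dilator muscle the number was 630 of 15395 and in stroma 2 it was 677 of 12788. In stroma 1 it was 444 of 8911 and in CBE 553 of 8166. These types hold all 7 pairs. No such numbers are given for DESeq2. Of the 34 log2 fold changes 29 were below 0 and 5 above, and this lean was not tested.

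In iris PE Btg2 had 4.93, 6.56 and 4.49 CPM in constricted irises, under all 3 untreated libraries, with a log2 fold change of −1.42 ± 0.40 (edgeR, adjusted p = 0.83). Btg1 had 92.8, 121 and 106 CPM untreated and 69.0, 62.3 and 47.9 CPM constricted, −0.84 ± 0.21 (edgeR, adjusted p = 0.77). Tob1 had 35.1, 44.4 and 37.0 CPM untreated and 14.8, 27.9 and 26.2 CPM constricted, −0.81 ± 0.29 (edgeR, adjusted p = 1.00). For these 3 genes every constricted library lay under every untreated one, as for 5.13% of all genes tested in iris PE.

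Btg2 in stroma 2 was also lower, with 7.29, 6.46 and 8.53 CPM in constricted irises and a log2 fold change of −1.27 ± 0.43 (edgeR, adjusted p = 0.75). It was called when no filter on low counts was used. In dilator muscle Btg2 overlapped between the groups (−0.17 ± 0.68), and Btg1 had 46.8, 40.3 and 45.0 CPM in constricted nuclei, under all 3 untreated libraries (−0.42 ± 0.15, edgeR adjusted p = 1.00). Btg3 there had 8.90, 7.53 and 9.48 CPM, also under all 3 untreated libraries (−0.41 ± 0.24). Of all genes tested, 742 of 15395 in dilator muscle and 696 of 12788 in stroma 2 lay below in this way. So did Btg1 in stroma 1 and sphincter 1 and Tob1 in CBE, beside 513 of 8911, 456 of 7112 and 549 of 8166 genes. Of the 7 pairs with an unadjusted p under 0.05 in edgeR, Btg1 in stroma 1 and Tob1 in CBE were the other 2, at −0.80 ± 0.30 and −0.84 ± 0.33.

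Dilated irises were also compared with constricted ones, a comparison that shares the dilated libraries with the one above. In dilator muscle Btg2 stood 5.67 ± 0.68 log2 units higher and in iris PE 4.18 ± 0.37, given as a description. Of the 26 paralog pairs 0 were called in edgeR, beside 2.65% of all pairs, 9 had an unadjusted p under 0.05, and DESeq2 called 2 with 5 at that level. In edgeR 3887 of the 15395 genes tested in dilator muscle were at that level, 1116 of 14128 in iris PE and 383 of 7522 in CB. In sphincter 2 the number was 847 of 6691 and in CBE 550 of 8166. These types hold all 9 pairs. Of the 26 log2 fold changes 24 were above 0 and 2 below, and this lean was not tested. With a block for the series of library numbers edgeR called 1, Tob1 in iris PE (log2 fold change 1.29, adjusted p = 0.0068), and with a replicate block the same pair (1.16, adjusted p = 0.014). The shares of all genes called by DESeq2 or with a block are not given for this comparison.

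The 2 pairs called by DESeq2 were Btg1 and Tob1 in iris PE. Btg1 there had 145 and 80.1 CPM dilated, above all 3 constricted libraries, with a log2 fold change of 0.95 ± 0.23 (edgeR, adjusted p = 0.097; DESeq2, adjusted p = 0.022). Tob1 had 35.003 and 63.0 CPM dilated, also above all constricted libraries, 1.16 ± 0.31 (edgeR, adjusted p = 0.15; DESeq2, adjusted p = 0.049). The share of all genes that lay above in this way was not counted for this comparison. In dilator muscle the differences were 0.46 ± 0.17 for Btg1, 0.61 ± 0.25 for Btg3, 0.66 ± 0.29 for Tob1 and 0.38 ± 0.20 for Tob2, with edgeR adjusted p-values of 0.11, 0.15, 0.18 and 0.27.

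The levels of the paralogs were spread differently over the untreated cell types. Btg1 was high in endothelial cells (144 ± 58.9 CPM), leukocytes (136 ± 23.8), stroma 2 (123 ± 21.8) and iris PE (107 ± 13.9), which overlapped one another, and iris PE stood above dilator muscle (58.9 ± 7.34) in every library. Tob1 was highest in CBE (75.9 ± 11.4 CPM), above stroma 1 (41.3 ± 8.82) in every library, and low in stroma 2 (8.84 ± 2.58). Tob2 was also highest in CBE (95.9 ± 18.8 CPM), overlapping stroma 1 (72.7 ± 21.0). Btg3 ranged from 7.94 ± 2.17 CPM in CB to 27.1 ± 17.8 CPM in sphincter 2, with 24 UMIs behind the latter.

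Over the 80 sums of a library and a cell type, log2(CPM + 10) of Btg2 had a Pearson correlation of 0.45 with Btg1, 0.29 with Btg3, −0.20 with Tob1 and −0.06 with Tob2, and Tob1 with Tob2 of 0.48. The sums share libraries and differ in depth, so these are descriptions. The genes most like Btg2 by the same measure, of 13091 with a mean of at least 5 CPM, were Gm26825 (0.72), Junb (0.66), Zfp36 (0.62), Arpc3 (0.61) and Pde3b (0.60). Gm26825 is a long non-coding RNA gene at chr5:5781530-5783636, Junb encodes an AP-1 subunit, Zfp36 an mRNA decay adaptor that also recruits CCR4-NOT, Arpc3 a subunit of the actin-nucleating ARP2/3 complex and Pde3b a cyclic nucleotide phosphodiesterase.

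The dilated sums helped to choose these 5 genes, so their dilator values are a description. Gm26825 had 23.7, 45.7 and 39.7 CPM untreated and 60.8 and 109 CPM dilated, a log2 fold change of 1.35 ± 0.29. Pde3b had 15.6, 8.44 and 6.17 CPM untreated and 60.1 and 102 CPM dilated, 3.38 ± 0.33, and Arpc3 stood at 1.28 ± 0.23. Over the 60 sums of untreated and constricted libraries the correlation with Btg2 was 0.67 for Gm26825, 0.61 for Pde3b, 0.52 for Arpc3, 0.43 for Zfp36 and 0.33 for Junb.

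Lists of partner and pathway genes were set beside the family in dilator muscle. Over all genes the median log2 fold change there was 0.02, and 13.3% were called. No list was tested against that share, and in lists this short 1 or 2 calls say little. An unadjusted p under 0.05 was found in edgeR for 4351 of the 15395 genes tested in dilator muscle. The CCR4-NOT complex had 11 subunits tested and 0 called by edgeR or DESeq2, with 1 at an unadjusted p under 0.05 in each, and a median of 0.05. Its 2 uncalled subunits with the highest level, Cnot4 and Cnot2, had log2 fold changes of 0.11 ± 0.15 and 0.05 ± 0.15. Of 7 poly(A) tail enzymes and binding proteins 2 rose, Pabpc1, the TOB-binding poly(A)-binding protein, by 1.16 ± 0.20 and Tnks1bp1, a CCR4-NOT-associated protein, by 0.87 ± 0.23, and the median was 0.03. Pabpc1 was called with each library left out, and Tnks1bp1 was not without either dilated library, without untreated replicate 2 or 3, or without scaling (0.70).

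Pabpc1 had 60.5, 77.4 and 81.8 CPM untreated and 145 and 147 CPM dilated, with no overlap and little spread between the dilated libraries (edgeR, adjusted p = 0.0021). Of the 15395 genes tested in dilator muscle, 2231 had every dilated library above every untreated one. Pabpc4 and Pan3, the highest uncalled members of that list, had log2 fold changes of 0.53 ± 0.15 and −0.07 ± 0.13 (edgeR, adjusted p = 0.032 and 0.80). Pabpc4 thus passed the threshold on adjusted p and missed only that on the fold change. Of 8 mRNA decay adaptors Zfp36 rose by 2.24 ± 0.53, from 10.6, 4.79 and 4.75 CPM to 9.87 and 38.9 CPM with dilated replicate 1 inside the untreated range, and Nanos1 rose by 0.79 ± 0.24 in edgeR, where DESeq2 called 1 of the 8, with a list median of 0.38, and Samd4, which was not called, had 0.46 ± 0.25. Without dilated replicate 2 neither was called, with Zfp36 at 0.84 and Nanos1 at 0.74, nor without untreated replicate 2 or 3, and Nanos1 was also not called without dilated replicate 1, untreated replicate 1 or scaling (0.62). Of 6 other partners tested 0 were called by edgeR or DESeq2, with 1 at an unadjusted p under 0.05 in each, with Smad4 at 0.24 ± 0.17 and Smad1 at 0.07 ± 0.16 and a median of 0.16.

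Of 17 tested p53 targets 2 rose, Cdkn1a by 4.33 ± 0.69 and Gadd45a by 2.80 ± 0.67, and the list median was 0.21. Of the 17, 9 had an unadjusted p under 0.05 in edgeR, beside 4351 of all 15395 genes tested in dilator muscle. Cdkn1a, which encodes the cell cycle inhibitor p21, was scarce, with 0, 0.704 and 0.316 CPM untreated and 5.92 and 11.4 CPM dilated. Gadd45a had 4.36, 1.83 and 1.58 CPM untreated and 4.34 and 22.2 CPM dilated, so that replicate 1 overlapped the untreated range. Cdkn1a was called with each library left out, and Gadd45a was not without dilated replicate 2 (1.10) or untreated replicate 2 or 3. The abundant p53 targets Sesn1 and Rrm2b had −0.36 ± 0.16 and 0.21 ± 0.17 and were not called.

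Of 5 tested CDK inhibitors Cdkn1a rose and 2 fell, Cdkn1c by 2.17 on the log2 scale (SE 0.41) and Cdkn2c by 1.53 (SE 0.42), and the median was −0.61. Cdkn1c, which encodes p57, had 6.86, 13.9 and 10.6 CPM untreated and 1.88 and 2.60 CPM dilated, and it was not called without dilated replicate 1 (−1.83), nor was Cdkn2c without either dilated library, without untreated replicate 2 or 3, or with the replicate block (−1.26). Cdkn1b and Cdkn2d had −0.61 ± 0.21 and 0.14 ± 0.39 and were not called. Of 9 cell division genes Pcna, the replication clamp, rose by 1.42 ± 0.41, with a list median of 0.30, and was not called without dilated replicate 2 (0.55) or any 1 of the untreated libraries, or without scaling (1.22). Ccnd3 and Ccnd2 had 0.56 ± 0.16 and −0.07 ± 0.22 (edgeR, adjusted p = 0.036 and 0.88). Ccnd3 thus missed a call only on the fold change.

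Immediate early genes other than Btg2 had the highest median of the 8 lists, 4.27: 12 of 14 tested rose and 0 fell, and 8 rose without dilated replicate 2. Egr1 had 12.5, 2.67 and 2.21 CPM untreated and 83.9 and 255 CPM dilated (log2 fold change 5.65 ± 0.60, edgeR adjusted p = 9.8e-05). Nr4a1 had 14.3, 9.99 and 9.49 CPM untreated and 50.4 and 400.4 CPM dilated (4.64 ± 0.66), and Jun had 43.6, 48.0 and 60.4 CPM untreated and 201 and 353 CPM dilated (2.63 ± 0.37). Junb had 30.5, 21.3 and 17.7 CPM untreated and 104 and 486 CPM dilated (3.98 ± 0.55). As for Btg2, dilated replicate 2 was the higher one for each of these 3 and Junb. Klf2 and Ier3 were not called, at 1.31 ± 0.63 and −0.07 ± 0.30.

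**Figure D5:**
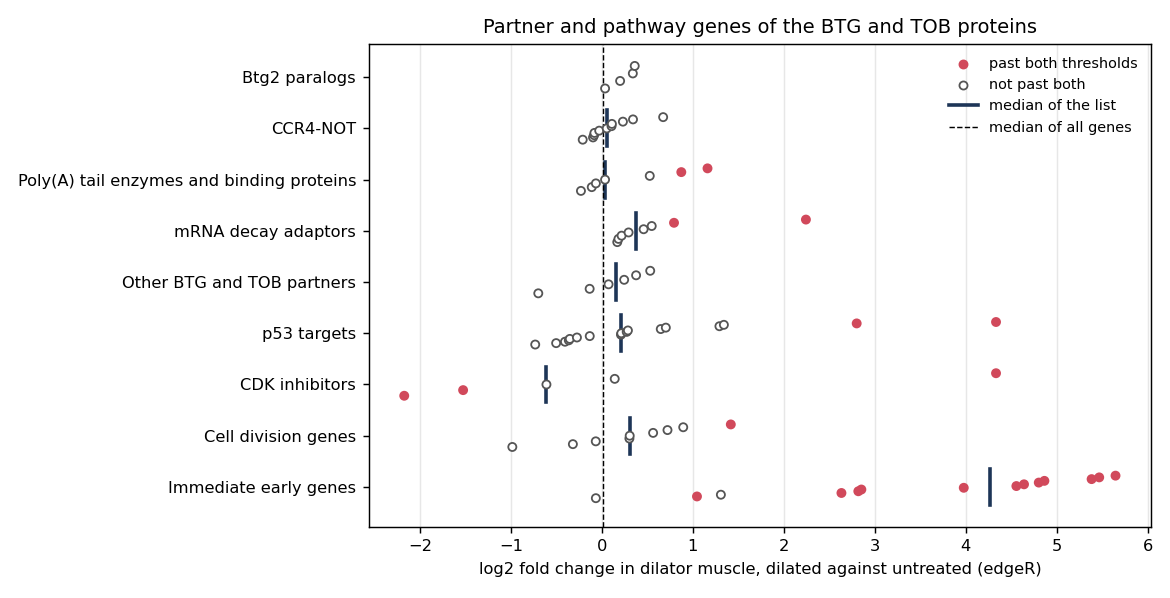
Log2 fold change in dilator muscle, dilated against untreated (horizontal axis), of each tested gene of 8 lists and of the 4 paralogs. Filled points passed both thresholds, open points did not, thick bars are list medians and the dashed line is the median of all genes; the paralogs and the 11 CCR4-NOT subunits are all open, and 12 of 14 immediate early genes are filled.

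In constricted irises 0 of the 76 tested genes of the 8 lists were called in dilator muscle by edgeR, where 0.0065% of all genes were, with 2 at an unadjusted p under 0.05 (630 of all 15395 genes), and DESeq2 called 1. That gene, the decay adaptor Samd4, had 150.2, 104 and 112 CPM untreated and 179, 351 and 212 CPM constricted, a log2 fold change of 1.06 ± 0.23 (edgeR, adjusted p = 0.65; DESeq2, adjusted p = 0.015). Btg4, a further family gene that is mainly known from oocytes, did not pass the filter in dilator muscle. It passed in stroma 2, where its log2 fold change with dilation was −0.11, and was not called. Its mean level in untreated endothelial cells was 54.8 ± 38.1 CPM, from 16 UMIs. The scaling of the libraries moved the dilator values as a whole: 1109 genes rose and 945 fell with TMM scaling, and 731 rose and 1527 fell with summed UMIs alone, when the median log2 fold change of all genes was −0.16. Without scaling the dilator value of Btg1 was −0.14, and that of Btg2 was 5.25.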

How the data were processed

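Single nuclei of mouse irises were profiled with the 10x Genomics Chromium 3' v3 kit in 8 libraries. Per the labels and the study's methods, the authors aligned reads to an mm10 pre-mRNA index (exons and introns) with Cell Ranger 3.1.0, removed nuclei by mitochondrial share and number of transcripts, clustered the rest with Seurat and named 10 cell types. The deposited matrices hold UMI counts per gene and nucleus, not normalized. The authors also deposited UMI and gene totals and the percent of mitochondrial transcripts of each nucleus. UMI totals in the matrices differed from those totals in 2707 nuclei, by at most 13 counts.

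UMIs of each cell type were added up within a library, and these sums were tested with edgeR 4.0.16 (TMM, filterByExpr, glmQLFit and glmQLFTest, two-sided, 1 fit per cell type with all 8 libraries), with Benjamini-Hochberg adjustment over the genes of a cell type, and DESeq2 as an alternative. Standard errors were derived from the quasi-likelihood F statistic. A call needed an adjusted p under 0.05 and an absolute log2 fold change above 0.6. Libraries pooled irises of several mice, and p-values measure the spread between libraries only. The authors processed the irises in several batches, and which library was in which is not given in the sources used here. Doublets were called with Scrublet (359 nuclei, 1.04%) and kept, except in an alternative. Nuclei were thinned to 1000 or 1500 UMIs for shares. Scripts were tested on simulated data.

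The members and lists were chosen with earlier results of these data known. Named genes were the 5 members, of each list the called genes with the lowest adjusted p in dilator muscle (at most 4) and the 2 uncalled ones with the highest CPM, and the 5 genes most correlated with Btg2. The value of 1 gene that this rule names is not reported here. Other alternatives were DESeq2 size factors, no scaling, no filter, each library left out, a replicate block, a block for the series of library numbers in the titles (2 to 4, 13, 15 to 18), and, chosen after seeing the data, nuclei with shared barcodes left out, and left-out libraries, blocks and no scaling for the called genes of the lists. Positions came from GENCODE vM21 and promoters from RefSeq (GRCm38.p6), in which all 5 genes were found.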

Additional observations from a re-analysis of the deposited data

Results flagged for a closer look

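For Btg3 both dilated libraries were above every untreated one in stroma 2 (log2 fold change 0.49) and below every untreated one in iris PE (−0.30). Such separation was common, since 12.2% of the genes tested in stroma 2 lay above and 15.5% of those in iris PE lay below in the same way. Neither value passed the test in its own cell type (edgeR, adjusted p = 0.56 and 0.89), and the difference between these 2 cell types was not tested. Among the members that passed the filter, no other had non-overlapping groups in opposite directions in 2 cell types under the same comparison.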

How the results depend on the processing

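With 2 dilated libraries that differed 7.32-fold in dilator Btg2, the size of the dilation difference rests on which library is counted. The Btg2 value in dilator muscle stayed above 0 under all 16 alternatives, from 3.30 to 6.33 when a library was left out, and was 5.36 with a replicate block. The number of paralogs called changed by dilation was 0 under all 16 alternatives, and the number whose effect differed between dilator muscle and another type was 0 under all 11. Against constricted irises the number of paralogs called was 2 with DESeq2 and 2 with no filter (Btg1 and Tob1 in iris PE), 1 with the replicate block and 1 with the library series block (Tob1 in iris PE both times), and from 0 to 1 with a library left out: Tob1 in iris PE without dilated replicate 1 and Btg1 in iris PE without dilated replicate 2. The number of members called changed by constriction was 1 with no filter on low counts, Btg2 in stroma 2. The number of genes called in dilator muscle was 3138 with the library series block and 2619 with the replicate block, and from 1086 to 2273 with a library left out, with the lower counts without dilated replicate 2 (1086), untreated replicate 2 (1143), untreated replicate 3 (1203) and dilated replicate 1 (1419). Single values that changed sign, none of them called, were Btg1 in dilator muscle with dilation at −0.14 with no scaling and from −0.076 to 0.12 with a library left out. With a library left out, the range was −0.038 to 0.44 for Btg3 and −0.13 to 0.74 for Tob1 in dilator muscle, and −0.34 to 0.43 for Btg1, −0.17 to 0.76 for Tob1 and −0.11 to 1.03 for Tob2 in iris PE, and the negative ends were those without dilated replicate 2, except Btg1, which was negative without dilated replicate 1 in both types and without untreated replicate 1 in dilator muscle. Btg2 in dilator muscle with constriction was 0.10 with the replicate block, 0.39 with the library series block and from −0.58 to 0.17 with a library left out. The cause was not tested. Same-numbered libraries of different conditions had correlated deviations of −0.03 to 0.42, so the numbers were not taken to pair the samples. The 8 pairs of libraries of different conditions from the same series of library numbers correlated at 0.18 to 0.42, and pairs from different series at −0.42 to 0.09. Deviations were taken from the mean of each condition, so the 2 dilated libraries deviate by equal and opposite amounts. Part of this contrast between pairs was therefore fixed in advance. The replicate block changed no call of a member other than those given. The left-out fits with 1 dilated library assume that it varies like the other groups. Of the 5 genes most like Btg2, 2 remained with Spearman correlation and 2 with condition means. In the rarest types a member had few UMIs, such as 4 of Btg2 in untreated CB, and differences there were detectable only when large.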
